A study of Mus musculus with 25 samples.

Results

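The type I interferon-stimulated genes described here are 36 genes listed for this work, from virus sensors to antiviral effectors, and all 36 have a row in the deposited table of 23366 gene symbols. Of these, 35 reached a value of at least 1 in at least 3 of the 25 libraries, the minimum that also left 12251 genes in all for testing. The exception was Ifi44.

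Each library is bulk RNA sequencing of CD8+ T cells taken from B16F10 tumours, a transplanted melanoma line grown in C57BL/6 mice, prepared by an adapted SMART-Seq 2 method that amplifies full-length cDNA from few cells. There were 16 wild-type libraries, 3 from Prdm1 cKO mice, 3 from c-Maf cKO mice and 3 from Prdm1/c-Maf cDKO mice (here cDKO), where cKO is a conditional knockout and cDKO a conditional knockout of both genes. Prdm1 encodes the transcriptional repressor Blimp-1 and Maf the transcription factor c-Maf; the sources used here do not give the line that drives the deletion, the age of the mice or the day of collection. Whether each library is its own animal is not stated either, and the p-values therefore describe library-to-library spread, which may be technical. Libraries are named by the code in their column name, such as A3.

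Type I interferons (the interferon-alphas and interferon-beta) bind a receptor of the IFNAR1 and IFNAR2 chains. The kinases JAK1 and TYK2 then activate transcription factors of the STAT family, STAT2 among them, and these join with IRF9. The complex these form binds interferon-stimulated response elements in the promoters of genes such as those listed. Many of the products degrade viral RNA, block its translation or amplify the response, and in T cells inside tumours the genes serve as a record of interferon exposure. Blimp-1 is known to recognise DNA motifs that resemble those of interferon regulatory factors.

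The deposited values are a normalised signal of unstated scale that behaves as if divided by gene length, so levels are compared between genes on that footing, and the depth of each library is unknown. Between 12749 and 15161 genes were above 0 in a library. Prdm1 signal fell in both groups meant to lack it, by 2.23 on the log2 scale in Prdm1 cKO and by 2.06 in cDKO (exact two-sided permutation p = 0.00103 for each, n = 16 and 3, the smallest that 969 splits allow). The check of Maf was weaker, because its signal was near the floor. Maf averaged 0.462 in wild type (range 0.03 to 0.95) and reached 1 in only 2 of the 25 libraries, under the minimum for testing. In c-Maf cKO its signal differed by -0.20 (exact permutation p = 0.367, n = 16 and 3), with libraries B10 and B11 at 0 and C1 at 0.93. Of the 16 wild-type libraries, 0 were at 0. In cDKO it differed by -0.42 (exact permutation p = 0.0289). The columns fall into 3 runs of neighbours: run 1 holds 7 wild-type and the Prdm1 cKO libraries, run 2 holds 4 and the c-Maf cKO libraries, and run 3 holds 5 and the cDKO libraries. The labels name no batch, so each comparison is also given with the run as a covariate. Each knockout group lies in its own run, so a difference between knockout groups is also a difference between runs.

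Markers of CD8 T cells were high in every library, with the 8 listed genes summing to between 1200 and 3410 in wild type, 1510 and 1940 in Prdm1 cKO, 1430 and 2640 in cDKO, and 2610 and 2720 in c-Maf cKO. All 8 had negative fold changes in Prdm1 cKO (0 called) and in cDKO (1 called lower). Markers of other cells were present too. The 14 macrophage and monocyte markers summed to between 67.8 and 2380 in wild type (median 458), 1400 and 4230 in Prdm1 cKO. They summed to between 211 and 1190 in c-Maf cKO, and 157 and 241 in cDKO. In Prdm1 cKO the 10 dendritic-cell markers summed to between 1380 and 5550, against 54.9 and 2350 in wild type (median 373). Of these 10, 5 had positive and 5 had negative fold changes, and 0 were called. The 4 B-cell markers summed to between 8.47 and 12.5 in Prdm1 cKO and 8.54 and 10.7 in cDKO. In wild type these 4 summed to between 0.37 and 9.85 (median 4.8). The part of either set in the results was not tested. Plasmacytoid dendritic cells are the specialised producers of type I interferon. Their 7 markers summed to between 26.6 and 105 in wild type and 46.8 and 48.9 in c-Maf cKO. In Prdm1 cKO they summed to between 28.7 and 47.8, and in cDKO 23.9 and 50.8. Much of the sum was Runx2 (wild-type mean 28.6) and Pacsin1 (8.98), both at or above 1 in all 25 libraries. Siglech averaged 18.4 in the wild-type libraries of run 3, against 1.25 and 1.53 in those of runs 1 and 2. It averaged 1.9 in Prdm1 cKO, 1.11 in c-Maf cKO and 0.31 in cDKO. Ccr9 was not lower in cDKO (7.05) than in run 3 wild type (6.05). The part of these cells was not tested. The 5 erythroid markers summed to between 1.38 and 1490 in wild type and 460 and 4020 in cDKO, where 3 of the 4 tested were called higher, and their part in the cDKO results was not tested. Of the 14 macrophage markers, 0 were listed at 0 throughout a genotype; of the 7 plasmacytoid markers, 1 was in Prdm1 cKO and 2 were in cDKO. The 9 melanoma markers summed to between 7.63 and 3860 in wild type and 795 and 1590 in Prdm1 cKO. They summed to between 16.5 and 671 in c-Maf cKO, and 124 and 1700 in cDKO, and their part in the results was not tested. In bulk samples, fewer cells of a type and less RNA per cell cannot be told apart.

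The response element core was more common in the members' promoters than in those of all tested genes. RefSeq promoter windows of build GRCm38.p6, running from 250 bases before to 50 after the start of the transcript, were found for 27 of the 36 genes. The core of the interferon-stimulated response element was searched as GAAA, any 2 bases, GAAA, on both strands. It occurred in 12 of the 27 (44.4%), against 3.93% of the 9079 tested genes with a window and 3.99% of all 27025 symbols in the promoter table. The 12 were the sensors Ifih1 and Ddx58, the translation and growth inhibitors Ifit1, Ifit3, Eif2ak2, Slfn5 and Slfn8, the synthetases Oas1a and Oas3, and Rsad2, Bst2 and Isg15. The gamma-activated sequence TTCNNNGAA, a palindrome, occurred in 6 of 27 (22.2%), against 8.43% of tested genes. The core of the Blimp-1 consensus, AGNGAAAG on either strand, which can overlap the response element, was found in 0 of 27, against 9.2% of tested genes, which says only that these letters do not occur in these windows. Of the 54 listed genes of the interferon pathway described below, 45 had a window. The response element core was found in 15 of these (33.3%), the gamma-activated sequence in 17 (37.8%) and the Blimp-1 core in 15 (33.3%). Genes can have several windows, and a gene was counted if any of its windows held the motif.

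Shown next are the 250 bases upstream of 5 members, 3 with the response element and 2 without it. Rsad2, Oasl2 and Irf7 were called in a comparison, and Isg15 and Ifit1, called in none, show how copies of the element are arranged. The sequences run 5′ to 3′ on the strand of the gene, with matches to the response element core or its reverse complement in capitals. They lie at chr12:26456453-26456702 (Rsad2, minus strand), chr4:156200819-156201068 (Isg15, minus), chr19:34640639-34640888 (Ifit1, plus), chr5:114896684-114896933 (Oasl2, plus) and chr7:141266425-141266674 (Irf7, minus).
Rsad2: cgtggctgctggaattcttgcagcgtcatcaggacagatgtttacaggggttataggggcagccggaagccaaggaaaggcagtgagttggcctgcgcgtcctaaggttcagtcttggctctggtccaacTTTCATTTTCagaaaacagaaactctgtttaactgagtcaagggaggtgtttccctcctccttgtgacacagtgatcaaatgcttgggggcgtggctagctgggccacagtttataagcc
Isg15: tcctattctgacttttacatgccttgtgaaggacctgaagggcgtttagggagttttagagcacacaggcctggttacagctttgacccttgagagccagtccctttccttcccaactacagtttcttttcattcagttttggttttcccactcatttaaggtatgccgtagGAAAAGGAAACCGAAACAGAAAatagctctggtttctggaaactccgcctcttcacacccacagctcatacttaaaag
Ifit1: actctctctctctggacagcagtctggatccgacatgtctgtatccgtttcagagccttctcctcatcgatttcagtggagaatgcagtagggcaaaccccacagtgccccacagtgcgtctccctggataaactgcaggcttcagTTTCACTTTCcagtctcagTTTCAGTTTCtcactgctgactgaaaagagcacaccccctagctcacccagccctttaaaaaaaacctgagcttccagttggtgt
Oasl2: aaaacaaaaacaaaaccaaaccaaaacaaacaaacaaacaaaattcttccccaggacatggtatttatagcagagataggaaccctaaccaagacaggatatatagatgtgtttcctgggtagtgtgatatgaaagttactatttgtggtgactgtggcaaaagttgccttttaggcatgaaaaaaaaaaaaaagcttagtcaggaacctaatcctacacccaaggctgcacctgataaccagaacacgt
Irf7: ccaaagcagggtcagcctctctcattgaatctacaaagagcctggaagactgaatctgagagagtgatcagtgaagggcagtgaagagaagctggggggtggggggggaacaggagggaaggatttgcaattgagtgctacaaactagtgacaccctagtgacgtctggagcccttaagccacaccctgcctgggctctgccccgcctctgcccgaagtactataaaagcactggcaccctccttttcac

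Isg15 carries 3 overlapping copies of the element within the 78 bases before its start and Ifit1 carries 2 separate ones, while Rsad2 has 1; those of Ifit1 and Rsad2 are on the opposite strand. The windows of Oasl2 and Irf7 hold 0. Over the 12 tested members with the element the median log2 fold change against wild type was 0.24 in Prdm1 cKO, 0.29 in c-Maf cKO and 0.27 in cDKO, and over the 14 without it -0.02, 0.08 and 0.09. The difference between these medians was not tested.

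**Figure D1:**
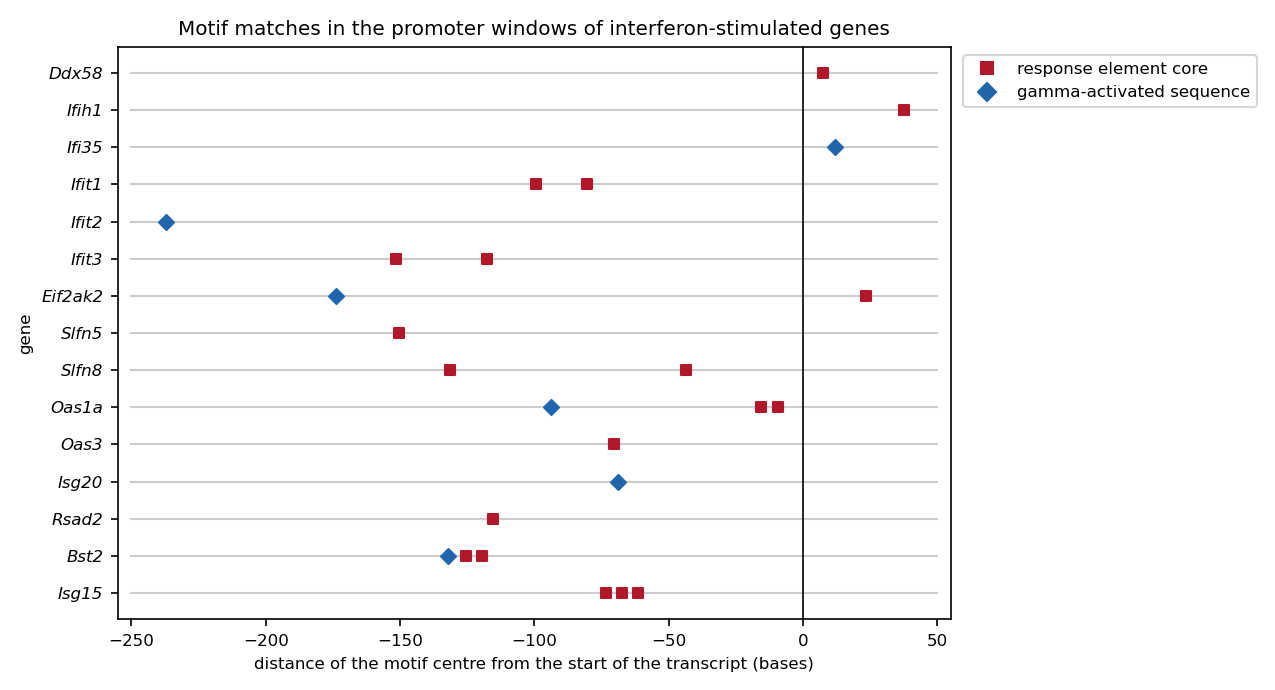
Positions of motif matches in the promoter windows of the interferon-stimulated genes that hold at least 1 match (y axis), as the distance of the motif's centre from the start of the transcript in bases (x axis). Squares mark the response element core and diamonds the gamma-activated sequence; grey lines span the window. In Isg15, 3 squares stand side by side upstream of the start.

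In wild-type tumour CD8+ T cells the interferon-stimulated genes were expressed at very different levels. Ifi27l2a, of the ISG12 family, had the highest signal, 176 ± 69.7 (SD, n = 16, range 78.33 to 308.56). Next came Epsti1 (74.7 ± 33.3), Bst2, which encodes tetherin, a protein that holds budding viruses at the cell surface (53.2 ± 12.9), Zbp1, a sensor of Z-form nucleic acids (43.2 ± 12.3), and Ifi35 (32.6 ± 9.21), all as mean deposited signal with SD over 16 libraries. At the other end stood Oasl1, Oas2, Oasl2 and Rsad2, with wild-type means of 1.40, 1.53, 2.34 and 2.34. Ifi44, the member left out of testing, had a wild-type mean of 0.119 and was at or above 1 only in c-Maf cKO library C1 (1.68) and cDKO library A2 (1.19).

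The wild-type libraries also differed among themselves. The log2 SD over the 16 libraries had a median of 0.42 over the 35 genes, against 0.39 over all genes tested. It was largest for Usp18, the protease that removes ISG15 and damps the receptor (0.87, signal from 0.71 in B3 to 23.09 in B4), followed by Oasl2 (0.75), Ifit1 (0.70), Oas2 (0.69) and Oas1a (0.64). Usp18 in B4 stood far above its wild-type median of 4.11. Between the 3 runs of wild-type columns, 0 of the 35 genes differed at an adjusted p under 0.05 by limma's moderated F test, where 3.03% of all genes did. At an unadjusted p under 0.05 there were 3: Oas2 (p = 0.0131, adjusted p = 0.149), Rsad2 and Slfn8.

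One number per library summarises the programme: the mean log2(value + 1) of the 35 genes. It ranged from 2.81 in B3 to 3.73 in A7 among wild-type libraries, with a median of 3.30. In Prdm1 cKO it was 3.22 in A5, 3.60 in A6 and 3.73 in A9. The c-Maf cKO libraries were at 3.37 (B10), 3.55 (B11) and 3.82 (C1). In cDKO it was 3.39 in A1, 3.59 in A2 and 3.81 in C2. All 3 knockout groups overlapped the wild-type range, and C1 and C2 lay above it, with A9 level with its top at 3.73. The wild-type library B3 had the lowest value of all 25 for 15 of the 35 genes and also the lowest sum of CD8 T cell markers, 1200. Its sum of the 9 melanoma markers, 3860, was the highest of all 25, against a wild-type median of 638. The part of tumour RNA in its values was not tested. The part of B3 in the comparisons was measured by leaving it out.

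**Figure D2:**
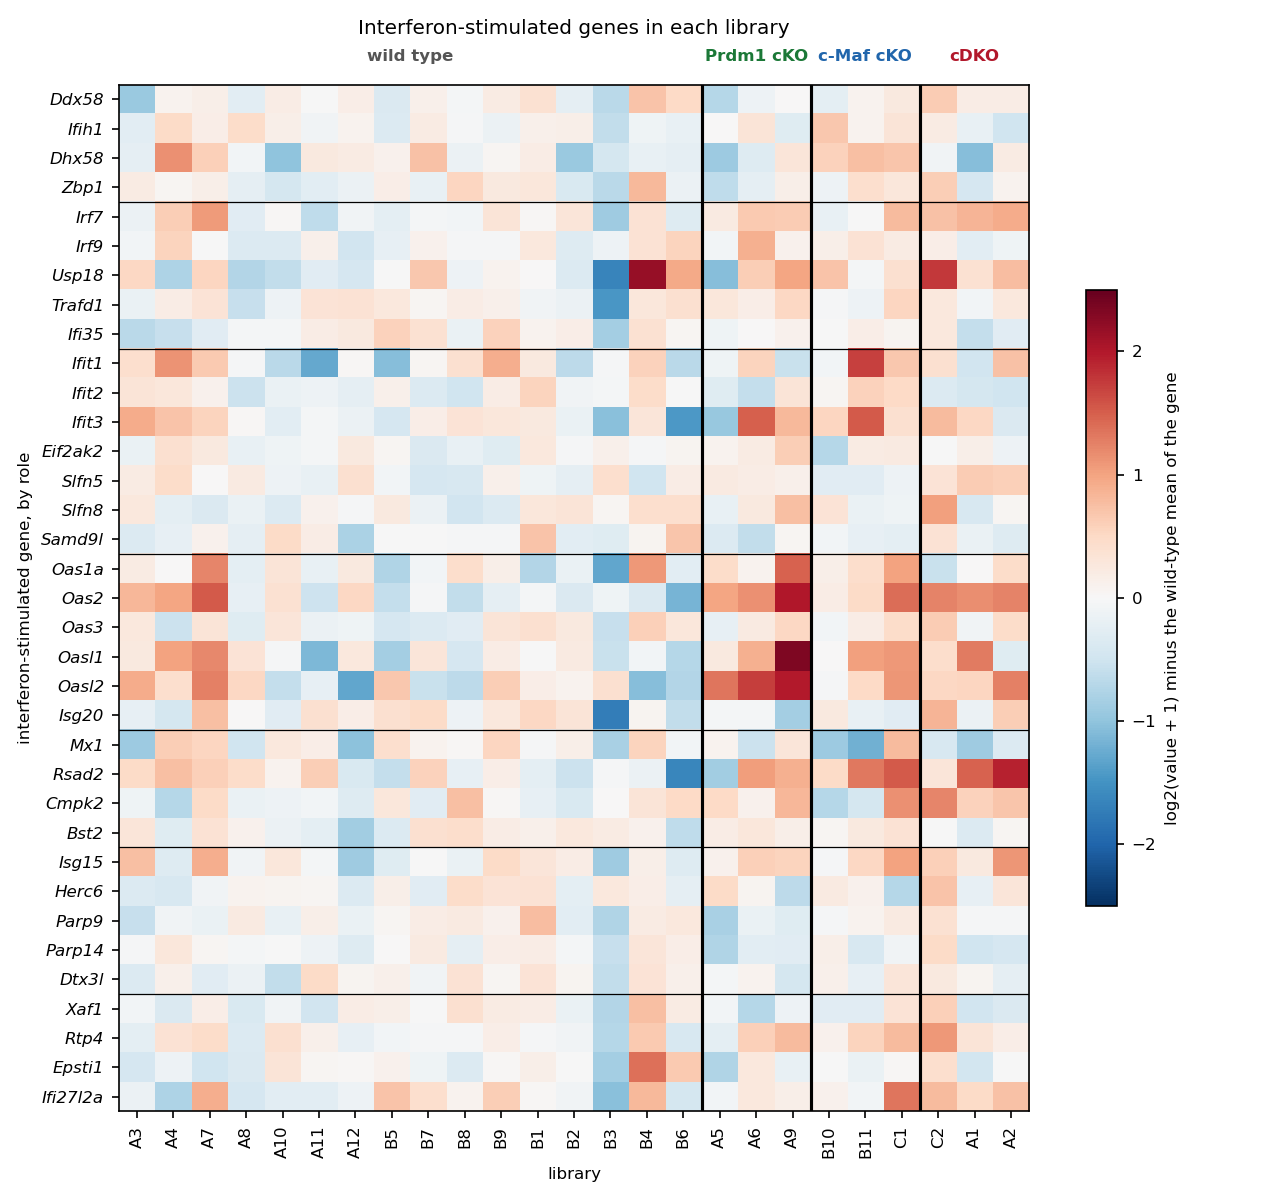
Signal of the 35 tested interferon-stimulated genes (rows, ordered by role) in the 25 libraries (columns, by genotype), as log2(value + 1) minus the wild-type mean of the gene. Wild-type library B3 has the lowest value of all 25 for 15 genes, and the rows Oas2, Oasl1 and Oasl2 are high in Prdm1 cKO library A9.

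The genes varied together to a limited degree. Over the 16 wild-type libraries, Pearson's r had a median of 0.21 over the 595 pairs of members and was above 0 in 72.1% of them, against a median of 0 and 50% over all pairs of tested genes. These libraries share their processing, and B3 is low in many members, so the values are a description. Irf7, the factor that amplifies interferon production, followed the mean of the other members most closely (r = 0.82), then the chaperone gene Rtp4 (0.79) and the ADP-ribosyltransferase gene Parp14 (0.76). Slfn5, a Schlafen-family gene, ran the other way (r = -0.42). Outside the list, the genes most like the mean of the members were Rbm34 (r = 0.82), Ube2a (0.80), Ly6a, which encodes Sca-1 (0.77), Ndufa1 (0.77), Pi4kb, Lrrc29 and Nmi (0.75 each), H2afj and Polr1d (0.74 each) and Tmsb10 (0.73). They were picked for the highest r among all tested genes over 16 libraries, and such a pick yields high values by itself.

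Loss of Prdm1 alone was followed by a rise of 2 of the 35 genes, both of the oligoadenylate synthetase family, and a fall of 0. The 2 are Oas2, whose enzyme makes the 2-5A messenger that switches on RNase L, and Oasl2, a ubiquitin-like relative. Of all genes, 1.58% were called higher, 1.87% lower and 3.45% in either direction. Over the 35 the median log2 fold change was 0.18 and 21 were above 0, beside a median of -0.02 over all genes. At an unadjusted p under 0.05 there were 4 of 35, beside 20.6% of all genes.

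Oasl2 signal was 6.49 in A5, 8.84 in A6 and 10.66 in A9, and ran from 0.21 over a median of 2.22 to 6.10 in wild type. All 3 Prdm1 cKO libraries lay above all 16 wild-type ones, which held for 0.824% of all genes and for 1 of the 35. Its log2 fold change was 1.68 ± 0.40 (SE, limma adjusted p = 0.0212).

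Oas2 signal was 3.45, 3.94 and 8.05 in A5, A6 and A9, and ran from 0 over a median of 1.02 to 5.51 in wild type. The groups overlapped, with 2 of the 3 knockout libraries inside the wild-type range. The change was 1.38 ± 0.38 (limma adjusted p = 0.0435). Within run 1 the wild-type libraries averaged 2.52, against 0.765 and 0.754 in the other runs, so the wild-type columns beside the Prdm1 cKO ones were themselves the highest for this gene.

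Oasl1, which encodes a restraint on Irf7 translation, stood at 1.60, 3.06 and 10.09 against 0 to 4.07 in wild type, and only A9 left the wild-type range (log2 fold change 1.16 ± 0.41, limma adjusted p = 0.106). Oas1a was 12.94, 9.78 and 27.23 (0.68 ± 0.36, adjusted p = 0.292) against 3.14 to 22.49. For the 6 genes of the OAS and RNase group, which also holds Oas3 and the exonuclease gene Isg20, the median was 0.92, and 5 of 6 fold changes were above 0. Counting of Oas1a may be shared with its close copies in the Oas1 cluster.

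In the other roles 0 genes were called. Over the 4 sensors the median was -0.26, over the 5 regulators 0.31, over the 7 translation and growth inhibitors 0.18, over the 4 other antiviral genes 0.28 and over the 5 genes of ISG15 conjugation and ADP-ribosylation -0.14. Over the 4 tested genes of other function it was -0.06. Among the members named by size were Irf7 (0.51 ± 0.26), Cmpk2 (0.48 ± 0.30), Ifit3 (0.45 ± 0.41), Isg15 (0.42 ± 0.28), Parp9 (-0.42 ± 0.21) and Parp14 (-0.44 ± 0.20), none of them past the threshold. Irf7 was 29.50, 40.07 and 39.42 in the 3 libraries, inside the wild-type range of 12.99 to 53.63. Isg15 was 12.14, 17.43 and 16.98, also inside its range of 5.58 to 22.02.

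Both calls ended under some alternatives: Oasl2 still passed under 29 of 34 and Oas2 under 17 of 34. With the column run as covariate 0 of 35 were called, beside 0.482% of all genes (Oasl2 1.53, limma adjusted p = 0.111; Oas2 0.87, adjusted p = 0.264). Without A6 the adjusted p was 0.0986 for Oasl2 and 0.118 for Oas2, and without A9 0.136 and 0.283. The Oas2 call also ended without any of A8, A11, B5, B7, B8, B9, B1, B2, B4 or A2, at adjusted p from 0.0501 to 0.0596. Leaving out A5 added Oasl1 to the calls (1.61, adjusted p = 0.0482). All 14 macrophage and monocyte markers had positive fold changes in this comparison, with a median of 2.52, and with their mean log2 as covariate, where 0.106% of all genes were called, the changes were 0.89 for Oasl2 (adjusted p = 0.441) and 0.59 for Oas2 (adjusted p = 0.635). That mean was 5.31, 5.28 and 6.74 in A5, A6 and A9, and of the wild-type libraries only A7, at 5.84, exceeded A5 and A6. The fit can therefore separate marker level from genotype only weakly. The library with the highest macrophage sum, A9 at 4230, was also the highest of all 25 for Oas2, Oasl1, Oasl2 and Oas1a. Its dendritic-cell marker sum, 5550, was the highest as well. The part of such cells in these values was not tested.

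**Figure D3:**
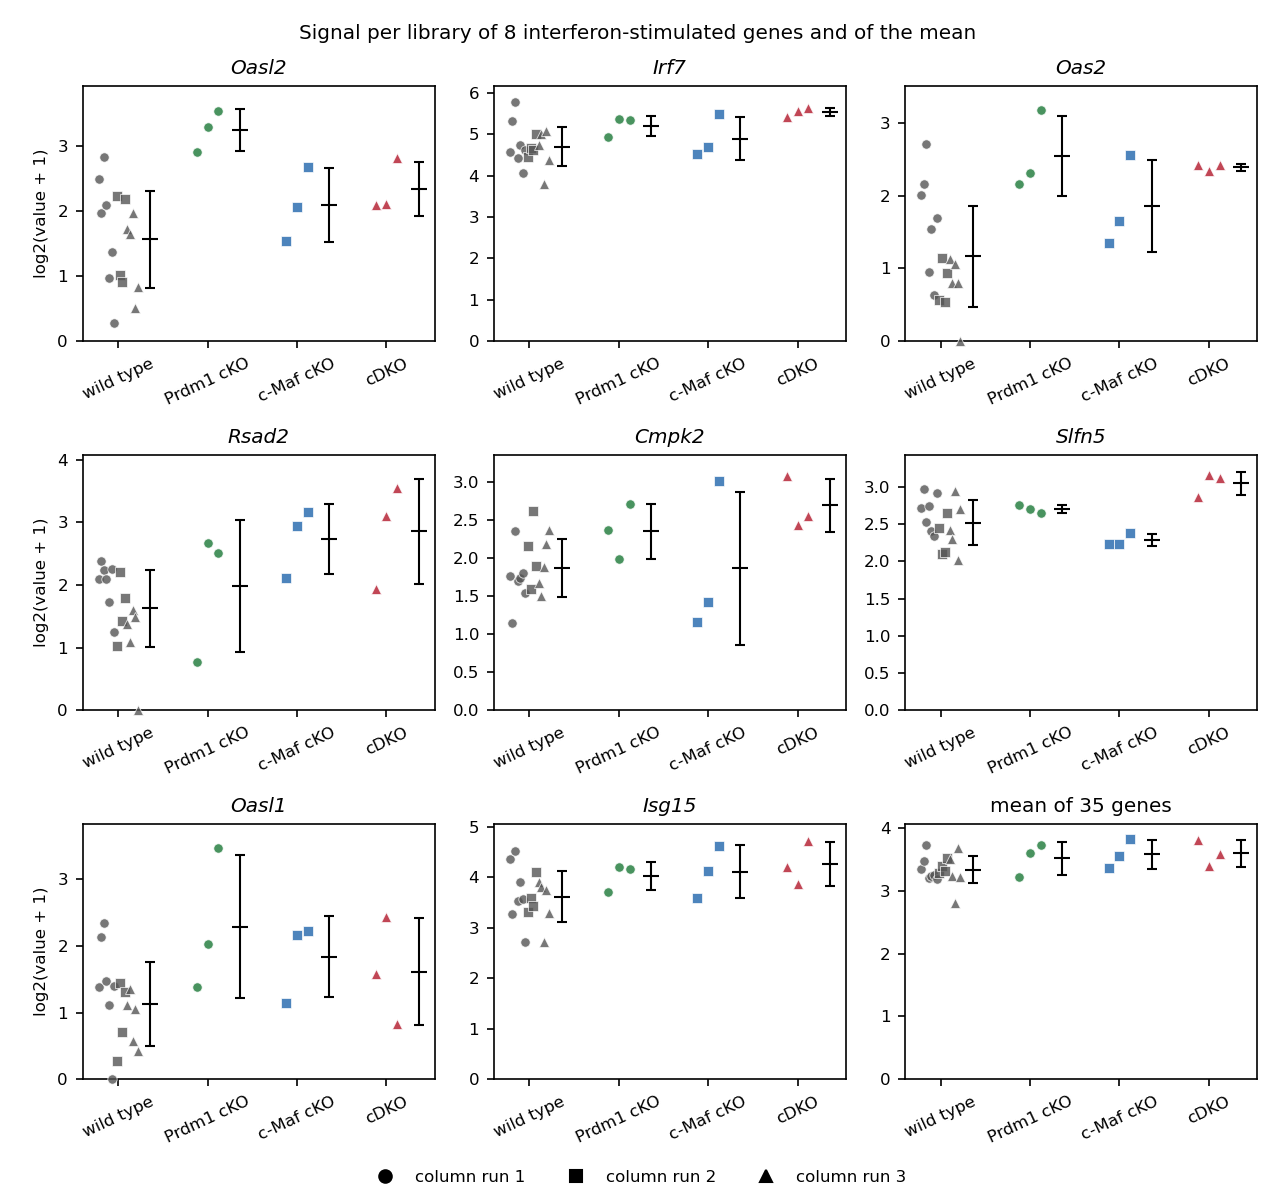
Signal per library as log2(value + 1) (y axis) for the 8 interferon-stimulated genes with the smallest adjusted p against wild type, and the mean of the 35 genes, by genotype (x axis). Marker shapes give the column run; bars give the mean and SD. Oasl2 is the panel in which the Prdm1 cKO libraries, at 6.49 to 10.66 before the log, clear the wild-type ones.

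Loss of c-Maf alone was followed by no call: 0 of the 35 genes passed, as did 0% of all genes tested. The median log2 fold change was 0.20, with 25 of 35 above 0, beside a median of 0 over all genes; with the run as covariate it was 0.10. At an unadjusted p under 0.05 there were 2 members, Rsad2 and Dhx58, where 6.16% of all genes were that low. In this comparison 0 members were called under any of the 35 alternatives run.

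Rsad2, which encodes viperin, an enzyme that makes a chain-terminating nucleotide against viruses, was 3.31, 6.71 and 7.96 in B10, B11 and C1. In wild type it ran from 0 over a median of 2.17 to 4.23, so 2 of 3 libraries lay above that range and 1 inside it (log2 fold change 1.11 ± 0.41, limma adjusted p = 0.793). Dhx58, the gene of the RNA sensor LGP2, was even across the group at 7.99, 9.20 and 8.83, inside the wild-type range of 2.00 to 12.42 (0.67 ± 0.33, adjusted p = 0.807). Ifit3 and Ifit1 had differences of 0.83 ± 0.41 and 0.77 ± 0.41. Both rested largely on B11, where Ifit3 was 31.15 and Ifit1 16.35, the highest of all 25 libraries, and without it they were 0.47 and 0.31. The remaining members named by size were Oasl1 (0.71), Oas2 (0.69), Oas1a (0.53), Oasl2 (0.53), Isg15 (0.50) and Rtp4 (0.48), with limma adjusted p from 0.807 to 0.829.

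Library C1 had a Maf signal of 0.93, inside the low wild-type range of 0.03 to 0.95. It also had the group's highest value for Rsad2, Cmpk2, Isg15, Irf7 and Ifi27l2a. Cmpk2, the mitochondrial nucleotide kinase gene next to Rsad2, was 1.24 and 1.69 in B10 and B11 but 7.13 in C1. Irf7 was 21.80 and 24.63 against 44.15, and Ifi27l2a 175.43 and 156.44 against 414.83. C1 had a macrophage marker sum of 1190 where B10 and B11 had 211 and 285, and the part of this in the values was not tested.

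Loss of both factors was followed by a rise of 3 of the 35 genes, Irf7, Oas2 and Rsad2, and a fall of 0. Of all genes, 5.09% were called higher, 6.85% lower and 11.9% in either direction. The median over the 35 was 0.22, with 23 above 0, beside -0.03 over all genes, and 8 of 35 had an unadjusted p under 0.05, against 24.8% of all genes. In 0 of the 35 did all 3 cDKO libraries leave the wild-type range on one side, which 3.12% of all genes did upwards and 2.16% downwards.

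Irf7 signal was 41.96 in C2, 45.81 in A1 and 48.63 in A2, close together, against 12.99 to 53.63 in wild type with a median of 23.98. Only A7 of the wild-type libraries, at 53.63, was above the 3. The log2 fold change was 0.84 ± 0.26 (limma adjusted p = 0.032).

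Oas2 was equally even at 4.33, 4.03 and 4.33, against a wild-type median of 1.02 and maximum of 5.51 (1.22 ± 0.38, limma adjusted p = 0.0372). Rsad2 was uneven, at 2.81, 7.58 and 10.71, with C2 inside the wild-type range of 0 to 4.23 and the other two above it (1.23 ± 0.41, adjusted p = 0.0462). Its neighbour Cmpk2 was 7.51, 4.43 and 4.91 against 1.22 to 5.15, highest in the library where Rsad2 was lowest, and missed the threshold (0.82 ± 0.30, adjusted p = 0.0693). Slfn5 was 6.31, 7.90 and 7.72 against 3.05 to 6.84 (0.53 ± 0.19, adjusted p = 0.0723). Cmpk2 passed without C1 (adjusted p = 0.0279) or B8 (0.0498), and Slfn5 without A4 (0.0468) or B3 (0.0481).

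Further members named by size were Usp18 (0.97 ± 0.49), Oasl2 (0.77 ± 0.40), Ifi27l2a (0.67 ± 0.32), Isg15 (0.65 ± 0.28) and Mx1 (-0.55 ± 0.35), with limma adjusted p from 0.147 to 0.364. Isg15 was 17.48, 13.57 and 25.27, of which only A2 exceeded the wild-type maximum of 22.02. Usp18 was 17.25, 5.98 and 8.10, all within 0.71 to 23.09. Mx1, whose allele in C57BL/6 mice makes no functional GTPase, was 2.74, 1.67 and 2.91. By role, the medians were -0.03 for sensors, 0.15 for regulators, 0.22 for translation and growth inhibitors, 0.46 for OAS and RNase genes, 0.36 for other antiviral genes, 0.11 for ISG15 conjugation and ADP-ribosylation and 0.26 for the 4 of other function.

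With the run as covariate 2 of the 3 calls held, Oas2 at 1.63 (limma adjusted p = 0.00881) and Rsad2 at 1.74 (adjusted p = 0.0125). Irf7 was at 0.94 (adjusted p = 0.0568). In that fit 4.39% of all genes were called higher, 3.58% lower and 7.97% in either direction. For Oas2 and Rsad2 the wild-type libraries of run 3 averaged lowest (0.754 and 1.32) and those of run 1 highest (2.52 and 3.13). The runs follow column order, while the codes A1 and A2 adjoin those of run 1. The run-adjusted changes therefore depend on placing A1 and A2 in run 3. Macrophage marker sums, at 157 to 241, were below the median of 458 over all wild-type libraries in all 3 libraries, where those of Prdm1 cKO were above it. They lay within the range of the run 3 wild-type libraries, 109 to 458. With the macrophage score as covariate 5 members were called, beside 12.1% of all genes. Leaving out single cDKO libraries ended calls: without A1 the adjusted p was 0.118 for Irf7, 0.116 for Oas2 and 0.192 for Rsad2, without A2 it was 0.168, 0.156 and 0.358, and without C2 it was 0.0658 for Irf7 and 0.101 for Oas2. The Rsad2 call also ended, at adjusted p from 0.0527 to 0.0599, without any of A10, A12, B5, B8, B9, B11, B1, B2 or B4.

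**Figure D4:**
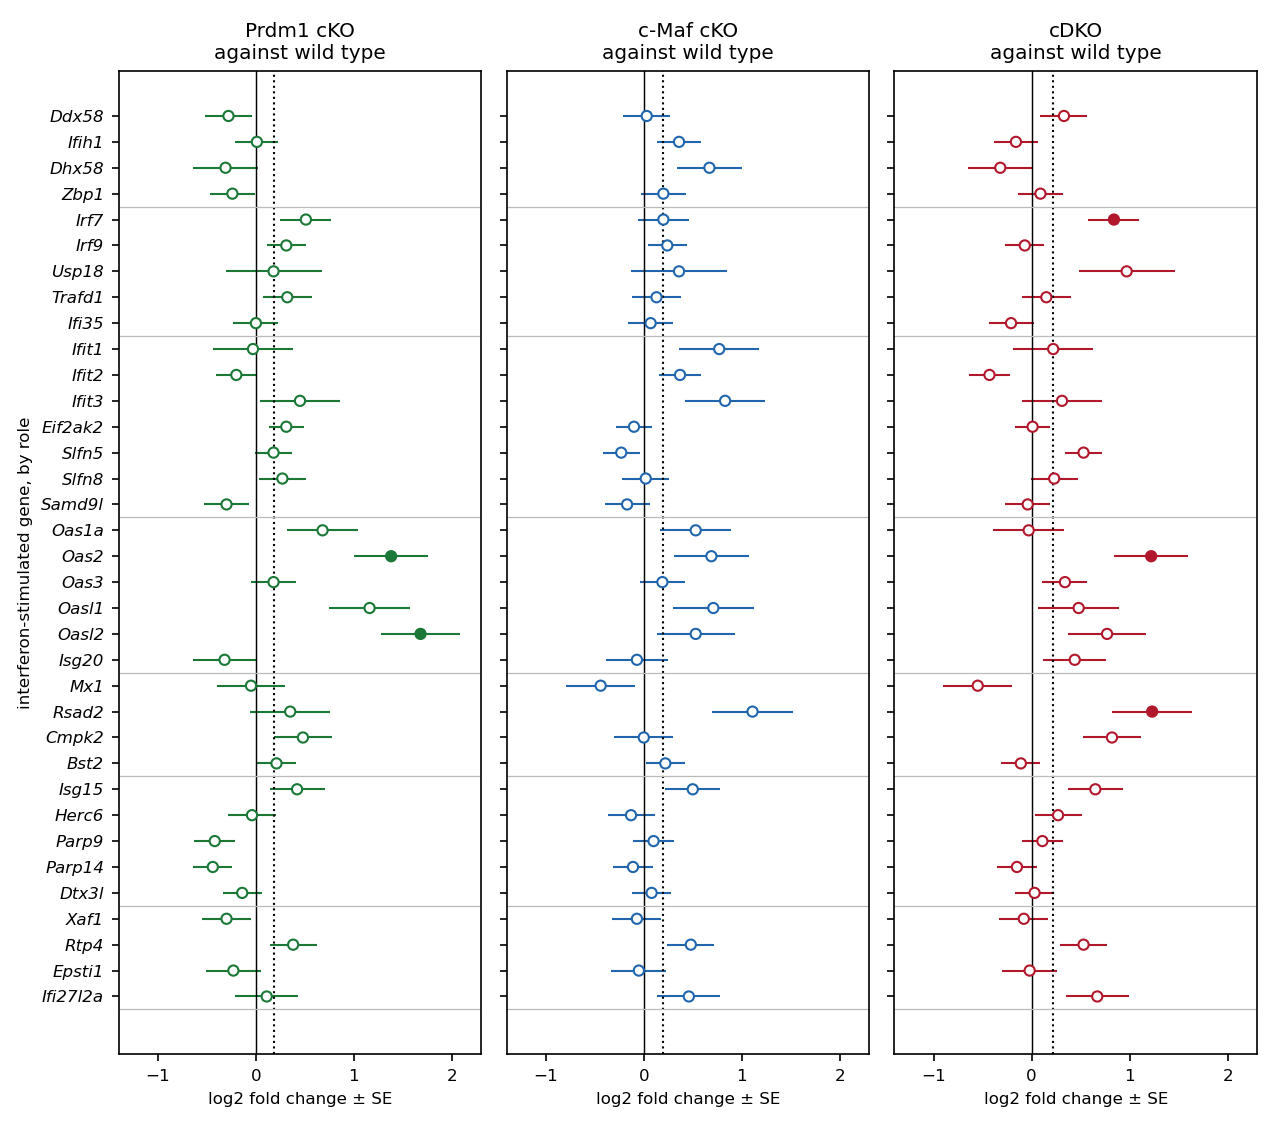
Log2 fold change with SE (x axis) of the 35 interferon-stimulated genes (y axis, ordered by role) for each knockout group against wild type. Filled points passed an adjusted p under 0.05 and the dotted line is the median of the 35, which lies at 0.18, 0.20 and 0.22.

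The 3 comparisons with wild type share their 16 control libraries. Oas2 is the member called in 2 of them, at 1.38 in Prdm1 cKO, 0.69 in c-Maf cKO and 1.22 in cDKO. Oasl2 was at 1.68, 0.53 and 0.77, and Rsad2 at 0.35, 1.11 and 1.23. Between knockout groups the differences themselves gave no call. For cDKO against Prdm1 cKO 0 of 35 passed, beside 0.392% of all genes (0.0653% higher), and 0 had an unadjusted p under 0.05, beside 12.6%. The largest differences were Oasl2 (-0.91 ± 0.52), Rsad2 (0.88 ± 0.53), Usp18 (0.79 ± 0.64) and Isg20 (0.75 ± 0.42), with limma adjusted p from 0.481 to 0.672. With the run as covariate they were -0.53, 1.77, 0.31 and 1.1, and 0 of 35 were called, beside 0% of all genes. All 14 macrophage and monocyte markers had negative fold changes in this comparison (median -3.26), and with their score as covariate the Oasl2 difference turned to 0.29.

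For cDKO against c-Maf cKO, 0 of 35 passed where 9.39% of all genes did (3.78% higher), and 4 had an unadjusted p under 0.05 against 23.8%. Slfn5 came closest: the cDKO libraries at 6.31 to 7.90 lay wholly above the c-Maf cKO ones at 3.72 to 4.23 (0.76 ± 0.25, limma adjusted p = 0.0521). It passed under 9 of 34 alternatives, among them without A4, B7, B8, B3 or B4 (adjusted p from 0.0434 to 0.0496), and its adjusted p with the run as covariate was 0.431, where 1.08% of all genes were called. Ifit2, at 3.60 to 4.15 in cDKO and 5.76 to 8.73 in c-Maf cKO, also did not overlap (-0.80 ± 0.28, adjusted p = 0.0699). With Dhx58, 3 of the 35 did not overlap between these groups of 3, beside 26.7% of all genes. Dhx58 differed by -0.99 ± 0.42 and Cmpk2 by 0.83 ± 0.38, and without C1 the Cmpk2 difference was 1.40 (adjusted p = 0.0254).

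For Prdm1 cKO against c-Maf cKO, 0 of 35 passed beside 1.53% of all genes, with 2 at an unadjusted p under 0.05 beside 20.7%: Oasl2 (1.15 ± 0.52, limma adjusted p = 0.206) and Dhx58 (-0.98 ± 0.42, adjusted p = 0.189). The departure from additivity asks whether loss of both differs from the sum of the single losses. It was called for 0 of 35, beside 0.00816% of all genes, and 2 had an unadjusted p under 0.05, beside 11.7%. These were Oasl2 (-1.44 ± 0.65, adjusted p = 0.376) and Oas1a (-1.24 ± 0.59, adjusted p = 0.408), and Oasl1 was at -1.38 ± 0.68 (adjusted p = 0.431). These 3 are of the OAS family. Oas2 was at -0.85 and Oas3 at -0.04. With the run as covariate Oasl2 was at -1.04, Oas1a at -0.79 and Oasl1 at -1.08, with 0 of 35 called beside 0% of all genes.

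Several genes of the machinery around the interferon-stimulated genes changed. Of 54 listed genes for ligands, receptors, kinases, factors, sensing adaptors and brakes, 49 are in the table and 33 passed the minimum. Type I interferon transcripts themselves were hardly seen: of the 17 listed ligand genes in the table only Ifng, the type II interferon, passed. Ifnb1 was at or above 1 in 1 library, of cDKO (1.29), and Ifna12 in 2.

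No change was called in the type I receptor chains or in Stat2. Ifnar1 averaged 25.5 ± 3.72 in wild type, 29.8 ± 6.68 in Prdm1 cKO, 25.5 ± 3.32 in c-Maf cKO and 28.9 ± 5.64 in cDKO (SD, n = 16, 3, 3 and 3). Stat2 averaged 5.80 ± 1.10, 5.61 ± 4.03, 5.79 ± 2.60 and 5.88 ± 0.598 in the same order. Ifnar2, Ifngr1, Il10rb and Irf1 were not called against wild type in any group either. With the run as covariate 2 of these were called in cDKO, Irf1 higher (0.88, limma adjusted p = 0.00781, against 0.36 and 0.38 without it) and Il10rb lower (-0.79, adjusted p = 0.0275, against -0.51 and 0.133).

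In Prdm1 cKO 5 of the 33 were called higher and 0 lower, beside 1.58% and 1.87% of all genes. Socs1 and Socs3, the feedback inhibitors of JAK kinases, changed by 1.12 ± 0.21 (limma adjusted p = 0.00428) and 1.49 ± 0.30 (adjusted p = 0.00866). Socs1 signal was 79.45, 101.6 and 113.16, against 31.42 to 80.17 in wild type. The others were Ifngr2, a chain of the interferon-gamma receptor (1.47 ± 0.40), Tlr9, a DNA sensor typical of plasmacytoid and B cells (1.67 ± 0.44), and Ikbke, a kinase that activates IRF3 (0.78 ± 0.19). With the run as covariate, where 0.482% of all genes were called, only Socs1 of the 5 passed (0.97, adjusted p = 0.0343). With the macrophage score, where 0.106% were, none of the 5 did, at adjusted p from 0.146 to 0.54. Without A6 all 5 calls ended (adjusted p from 0.0503 for Socs1 to 0.185 for Ifngr2), and without A9 all except Socs1. Without A5 the Tlr9 and Ikbke calls ended (0.0804 and 0.055), and without B5, B7, B8 or B9 the Ifngr2 call did (0.0502 to 0.0534).

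In c-Maf cKO 0 of the 33 were called. In cDKO 5 were called higher and 7 lower, beside 5.09% and 6.85% of all genes. Irf8, a factor of the same family as Irf7, fell furthest, to 1.76, 3.35 and 8.33 from a wild-type range of 18.74 to 97.47 (-3.36 ± 0.43, limma adjusted p = 6.61e-05). The groups did not overlap, and the call held under all 35 alternatives. In Prdm1 cKO Irf8 averaged 18.8 ± 13.1 (SD), against 54.4 ± 26.2 in wild type, and was not called. Dendritic-cell markers there summed to 1380 to 5550, but 5 of the 10 had negative fold changes. In cDKO the markers of these cells, which also express Irf8, summed to 90 to 321, against 54.9 to 2350 in wild type. Their part in the Irf8 values was not tested. Ifng fell to a mean of 15.2 ± 20.9 from 44.5 ± 27.9 (-2.22 ± 0.55, adjusted p = 0.01), with single libraries from 1.65 to 39.29, and without A1 its adjusted p was 0.171. Also lower were Tyk2 (-0.84), Irf3 (-0.75), Irf5 (-1.84), Tmem173, which encodes STING (-0.93), and the phosphatase gene Ptpn6 (-1.16). Each of these 5 calls ended without A1 and without A2, at adjusted p from 0.0506 to 0.296, and the Ifng call ended without A2 at 0.106. With the run as covariate Irf8, Tyk2, Irf3 and Tmem173 passed, and Ifng, Irf5 and Ptpn6 did not (adjusted p = 0.0886, 0.0873 and 0.0598). Rescaled to the CD3 genes, Irf3 (-0.43, adjusted p = 0.291), Tyk2 (-0.53, 0.121) and Tmem173 (-0.60, 0.083) did not pass.

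Higher in cDKO were Ifngr2 (2.14 ± 0.40, limma adjusted p = 0.0011), Jak1 (0.75 ± 0.17, adjusted p = 0.00427), Ikbke (0.76 ± 0.19), Socs1 (0.90 ± 0.21, adjusted p = 0.00491) and Socs3 (1.44 ± 0.30, adjusted p = 0.00239). Ifngr2 signal was 31.82, 47.9 and 53.0, all above the wild-type maximum of 24.78, and it passed under all 35 alternatives. Without A2 the adjusted p was 0.0628 for Socs1, 0.0522 for Socs3 and 0.0671 for Jak1, and without C2 it was 0.106 for Ikbke. Each of the 5 higher calls also passed with the run as covariate, at adjusted p from 0.000573 to 0.0447.

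**Figure D5:**
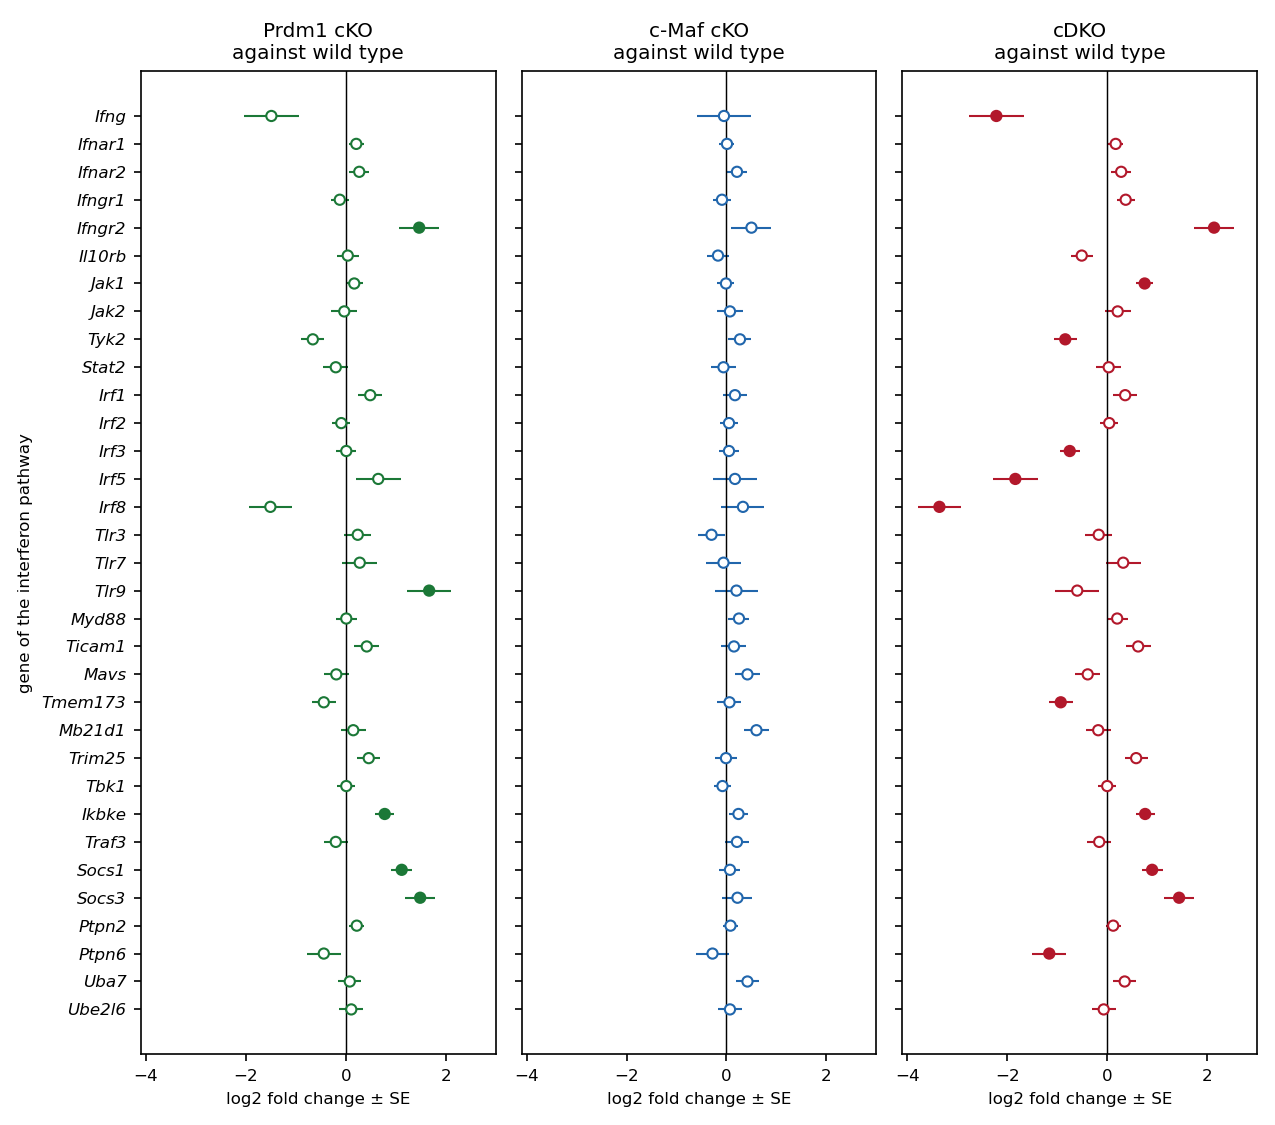
Log2 fold change with SE (x axis) of the 33 tested genes of the interferon pathway outside the list of 36 (y axis) for each knockout group against wild type. Filled points passed an adjusted p under 0.05; Irf8 at -3.36 and Ifngr2 at 2.14 are the extremes in cDKO, and c-Maf cKO has 0 filled points.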

How the data were processed

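Expression was measured by bulk RNA sequencing in 25 libraries of tumour CD8+ T cells. The authors deposited a normalised signal per gene symbol; per the submitters' processing notes TopHat, RSEM and DESeq were used with mouse build mm9, while versions, filters and the scale are not given in these sources. Column totals run from 389650 to 475956. The 10th percentile of values above 0 was 0.42 in the quartile of shortest genes and 0.06 in that of longest, so low values scale with length. The values are not counts and the depth is unknown, so no counting interval is given.

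Columns were assigned to genotypes by their names, which match no single sample, and 0 pairs of columns were identical. Values were taken as log2(value + 1), which understates changes of low genes. Genes that reached 1 in 3 or more libraries were fitted with limma 3.58.1 in R 4.3.3, all 25 libraries in 1 model with trend and robust options, tested on simulated data. A gene is called at a Benjamini-Hochberg adjusted p under 0.05 over all 12251 genes; every adjusted p is from limma. Members completing 10 per comparison were named by the largest absolute fold change, and pathway genes where called; 1 gene is not reported here. The members and lists were chosen with earlier results of these data known. Alternatives changed the pseudocount, filter, scaling, covariates, libraries and variance model. Promoters come from RefSeq on GRCm38.p6. Genes with close copies, such as Oas1a, Ifit3, Slfn8 and Ifi27l2a, may share signal with them.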

Additional observations from a re-analysis of the deposited data

How the results depend on the processing

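No paired analysis was possible because the columns carry no replicate numbers. The count of members called higher in Prdm1 cKO against wild type, 2, was 0 with a pseudocount of 0.1, with a minimum of 10 (19 members tested), with the column run and with the macrophage score as covariate, and 1 with any value above 0 tested or only the 2 groups fitted; leaving out single libraries gave 0 to 3. For cDKO against wild type, 3 became 1 with a pseudocount of 0.1 or a minimum of 10, 0 with any value above 0, and 5 with rescaling to the CD3 genes or the macrophage score; leaving out single libraries gave 0 to 4. That rescaling moved the median of all genes by 0.28 in Prdm1 cKO, -0.21 in c-Maf cKO and 0.23 in cDKO, and the members' medians to 0.51, -0.05 and 0.48. For cDKO against c-Maf cKO, 0 became 1 with a pseudocount of 10, median-of-ratios scaling or no trend or robust option, and 2 with the macrophage score; leaving out single libraries gave 0 to 1. Counts of members called lower stayed at 0 in the 7 comparisons under all alternatives run, as did higher counts in the other 4. Fitting only the groups compared has no form for the departure from additivity. Against the wild-type libraries of its own run, the c-Maf cKO difference was -0.34 for Prdm1 (exact permutation p = 0.114, 0.19 over all) and 0.01 for Maf (exact permutation p = 0.914), and the cDKO difference for Maf was -0.38 (exact permutation p = 0.107).

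Some differences that did not pass the threshold changed sign, among them the leading one of cDKO against Prdm1 cKO, Oasl2 at -0.91. With the macrophage score, cDKO against Prdm1 cKO was 0.29 for Oasl2, 0.57 for Oasl1 and 0.26 for Mx1, Prdm1 cKO against c-Maf cKO was -0.03 for Oas2 and -0.31 for Oasl1, and the departure from additivity of Oas2 was 0.39. With the run as covariate, Prdm1 cKO against c-Maf cKO was -0.18 for Oas2 and -0.02 for Oasl1. Rescaling to the CD3 genes gave 0 for Oas1a in cDKO against c-Maf cKO, and 0.07 for Parp9 and 0.20 for Zbp1 in Prdm1 cKO against c-Maf cKO. Leaving out single libraries took Ifit3 in Prdm1 cKO from -0.07 (without A6) to 1.15, and Oasl1 in Prdm1 cKO against c-Maf cKO from -0.14 (without A9) to 0.91. Genes near no change flipped as well. In Prdm1 cKO, rescaling gave 0.10 for Stat2, which ran from -0.67 to 0.22 with a library left out. In c-Maf cKO, rescaling gave -0.25 for Ifnar1, -0.05 for Ifnar2 and -0.10 for Irf1, the run 0.02 for Stat2 and -0.09 for Irf1, and for Ifnar1 median-of-ratios scaling gave -0.01 and the macrophage score 0; with a library left out Ifnar1 ran from -0.09 to 0.06 and Stat2 from -0.34 to 0.22. In cDKO, the run gave -0.15 for Stat2, and leaving out a library gave -0.02 to 0.10. The cause of these moves was not tested. Low signal limits Oas2, Oasl1 and Rsad2, each listed at 0 in 1 wild-type library.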

Other observations

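Genes induced mainly by interferon-gamma, listed beside the type I programme, gave 18 tested members of 20: the guanylate-binding proteins, the immunity-related GTPases, chemokines and antigen-processing genes. In Prdm1 cKO, where 1.87% of all genes were called lower and 1.58% higher, 1 was called lower, Tap1, a peptide transporter for MHC class I (-0.89 ± 0.22, limma adjusted p = 0.0274), and 0 higher, with a median of -0.37. That call ended with the run as covariate (-0.73, adjusted p = 0.126), with the macrophage score (-0.71, 0.336), rescaled to the CD3 genes (-0.52, 0.0856), and without A5, A6 or A9 (adjusted p = 0.0749, 0.131 and 0.076). In c-Maf cKO 0 were called, with a median of 0.19. In cDKO, where 5.09% of all genes were called higher and 6.85% lower, 1 was called in each direction. Gbp9 was higher, at 22.81 to 25.21 against 8.74 to 19.81 in wild type (0.80 ± 0.22, adjusted p = 0.0175), and Gbp3 lower (-0.95 ± 0.25, adjusted p = 0.0117). Without A1 the adjusted p was 0.0621 for Gbp9 and 0.0556 for Gbp3, without A2 it was 0.107 and 0.174, and without C2 it was 0.0574 for Gbp9. With the run as covariate Gbp9 passed (0.86, adjusted p = 0.0443) and Gbp3 did not (-0.72, adjusted p = 0.125), nor did Gbp3 when rescaled to the CD3 genes (-0.65, 0.106).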
